A study of Homo sapiens with 11 samples.

Results

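The 8 genes described here encode RNA-binding proteins that set splicing choices during epithelial-mesenchymal transition (EMT), namely *ESRP1*, *ESRP2*, *RBFOX2*, *QKI*, *MBNL1*, *MBNL2*, *MBNL3* and *CELF1*. They were taken by symbol from 57773 genes in the deposited expression matrix, and all 8 were found. Splicing within the same genes was taken by symbol from the deposited splicing tables, which hold 91 of their events among 92662 in all. The study used HCC78, a lung adenocarcinoma cell line that itself carries the S34F mutation of the splicing factor U2AF1 and a *SLC34A2-ROS1* fusion, and added doxycycline-inducible U2AF1 with FLAG and HA tags, either wild-type (WT) or S34F. RNA-seq covered 9 libraries, with 2 each of WT dox+, WT dox-, S34F dox+ and parental HCC78 (dox minus) and 1 of S34F dox-. GEO labels the parental libraries as dox minus, as they are called here, but a supplementary table of the study marks them Dox+. Each construct was introduced into the one cell line, and the labels do not say whether libraries of a group came from separate cultures, so p-values measure the spread between these libraries. All groups share the endogenous S34F allele. The labels put S34F at 32% of *U2AF1* mRNA in both parental libraries, 33% in both WT dox- and 28% in S34F dox-. With induction its share of the mRNA was 62% and 65% in S34F dox+ and 12% and 14% in WT dox+.

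EMT is the change by which cells with epithelial contacts take on a mobile, mesenchymal form. Alternative splicing is part of it, since many genes for cell junctions, the cytoskeleton and signaling make an epithelial and a mesenchymal isoform. ESRP1 and ESRP2 promote the epithelial isoforms and are largely restricted to epithelial cells, whereas RBFOX2 and QKI are known for promoting mesenchymal isoforms. MBNL proteins and CELF1 often act on the same exons in opposite directions, and MBNL proteins are also known for exon choices in differentiated cells. U2AF1 acts more generally, on most introns, as the subunit of U2AF that reads the AG at the 3′ splice site.

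*U2AF1* itself was measured at 277.6 and 299.05 FPKM (fragments scaled by transcript length and by the mapped fragments of the library) in WT dox+, while S34F dox+ had 164.44 and 222.76, against 102.76 to 115.06 in the 5 libraries without induction. Both induced groups were thus above every other library, and the S34F dox+ libraries held less *U2AF1* RNA than the WT dox+ libraries. Read depth per library cannot be read from FPKM and is unknown. The number of genes at 1 FPKM or more was 20896 in S34F dox+ replicate 2 and 15736, 16053 and 17716 in the other dox+ libraries. In the 5 libraries without induction it was 13661 to 14688, below every dox+ library. The part of this difference in comparisons of dox+ with dox- was not tested. Values are also given without S34F dox+ replicate 2 where it matters. All 10 epithelial markers examined, among them *EPCAM*, *CDH1* and *KRT8*, were at 1 FPKM or more in every library, and *CDH2* and *TWIST1* did not reach 1 FPKM in any. The summed level of the epithelial markers was 5157 to 5986 FPKM in S34F dox+ and 6067 to 6517 in WT dox+. In the uninduced libraries it was 5411 to 7473 FPKM, a range that overlapped both induced groups. *KRT8*, *KRT18* and *KRT19*, with means of 1944, 1435 and 1986 FPKM, weigh most in this sum. The summed level of the 10 mesenchymal markers, 5 of which averaged 1 FPKM or more, was 206 to 227 FPKM in S34F dox+, 131 to 136 in WT dox+, and 63.7 to 97 in the uninduced libraries. *FN1* and *VIM*, with means of 78.21 and 34.84 FPKM, make up most of this sum, and the next marker, *ZEB1*, averaged 2.187. These marker sums moved with the main comparison below, and their part in its results was not tested. Of the 6 lung adenocarcinoma genes examined 4 averaged 1 FPKM or more, with *NKX2-1* between 49.05 and 67.8 FPKM, while *SFTPB* and *SFTPC* averaged 0.928 and 0.234 FPKM. Blood cell markers summed to 0.31 to 4.71 FPKM and those of fibroblasts and endothelium to 3.35 to 10.5.

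Every one of the 8 regulators was expressed in every library. *MBNL1* had the highest level, with a mean of 142.1 FPKM over the 9 libraries and a range of 117.52 to 161.83. *QKI* followed at 79.78 FPKM (69.53 to 94.35), and *RBFOX2* at 62.64 (53.57 to 71.41). *CELF1* averaged 51.03 FPKM (45.24 to 61.52) and *ESRP1* 47.88 (41.3 to 54.95). *ESRP2* averaged 24.92 FPKM (21.2 to 30.15), *MBNL2* 18.89 (12.29 to 23.92) and *MBNL3* 17.77 (13.44 to 23.62). In this order *MBNL1* exceeded *QKI*, *QKI* exceeded *RBFOX2* and *ESRP1* exceeded *ESRP2* in 9 of 9 libraries. The other neighbors did not hold their order throughout. *RBFOX2* was above *CELF1* in 8 libraries, *ESRP2* above *MBNL2* in 7, and *CELF1* above *ESRP1* and *MBNL2* above *MBNL3* in 6 each. The libraries thus held mRNA of the epithelial regulators and of the mesenchymal regulators side by side. In such bulk RNA, fewer cells expressing a gene and less of its RNA per cell cannot be told apart.

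**Figure D1:**
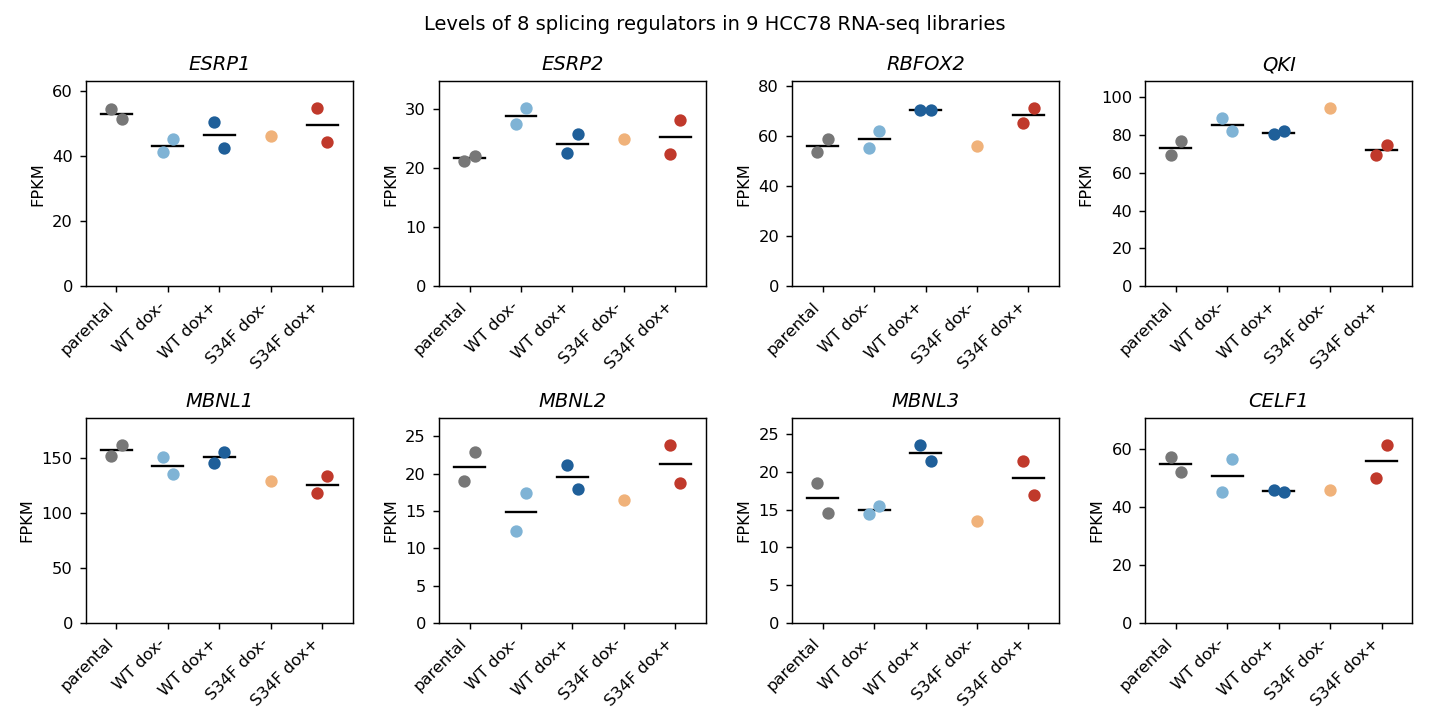
Levels of the 8 regulators in FPKM (vertical axis, linear and starting at 0) by group, with 1 point per library and a line at the mean where a group has 2 libraries. *MBNL1* runs from 117.52 to 161.83 FPKM and *MBNL3* from 13.44 to 23.62, and in no panel does a library fall near 0.

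Levels varied little between libraries for most of these genes. The highest library was 1.33 times the lowest for *ESRP1* and for *RBFOX2*, 1.36 times for *QKI* and for *CELF1*, 1.38 times for *MBNL1* and 1.42 times for *ESRP2*. On the log2(FPKM + 1) scale the range of these 6 genes was larger than that of only 10.6% (*ESRP1*) to 19.9% (*ESRP2*) of the 15179 genes tested, those with a mean of at least 1 FPKM. *MBNL2* and *MBNL3* varied more, with ratios of 1.95 and 1.76 between the highest and the lowest library and ranges larger than those of 59% and 48.8% of genes. *MBNL1* made up 72.2% to 84.9% of the summed FPKM of the 3 MBNL genes, with the lowest share in S34F dox+ replicate 1 and the highest in WT dox- replicate 1. The ratio of *ESRP1* to *ESRP2* lay between 1.5 in WT dox- replicate 2 and 2.57 in parental replicate 1. It was 2.46 and 1.58 in S34F dox+ and 2.25 and 1.65 in WT dox+, so the induced groups overlapped.

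The comparison of S34F dox+ with WT dox+ asks what a higher share of mutant *U2AF1* mRNA goes with when both constructs are induced. The paper describes stable subclones, so mutant share, total *U2AF1* RNA and differences between subclones cannot be told apart in this comparison. None of the 8 regulators passed the test in it (limma-trend on log2(FPKM + 1), two-sided, Benjamini-Hochberg adjusted p under 0.05), with a smallest adjusted p of 0.733 for *MBNL1*. Among all 15179 genes tested, 0.0527% were called at that adjusted p and 6.78% at an unadjusted p under 0.05, where the count of regulators was also 0. With 4 regulators above and 4 below 0, their median log2 fold change was 0.01, against 0.03 over all genes tested.

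The epithelial regulators overlapped between the induced groups. *ESRP1*, whose protein is a main epithelial splicing regulator, was at 54.95 and 44.5 FPKM in S34F dox+ and 50.47 and 42.43 in WT dox+. The log2 fold change of *ESRP1* was 0.09 (95% confidence interval -0.24 to 0.43) and turned to -0.02 with TPM. *ESRP2*, its paralog, was at 22.3 and 28.13 FPKM in S34F dox+ and 22.46 and 25.68 in WT dox+, with a log2 fold change of 0.06 (-0.29 to 0.40) that turned to -0.05 with TPM. Equal levels are not shown, since the upper limits of the intervals are 0.43 and 0.40.

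Of the mesenchymal regulators, *RBFOX2* was at 65.28 and 71.41 FPKM in S34F dox+ and 70.59 and 70.43 in WT dox+. The log2 fold change of *RBFOX2* was -0.05 (95% confidence interval -0.31 to 0.22), and the groups overlapped. *QKI*, which encodes a STAR-family protein, was at 69.66 and 74.65 FPKM in S34F dox+ and at 80.68 and 81.84 in WT dox+. Both S34F dox+ libraries were below both WT dox+ libraries, but the log2 fold change of -0.17 (-0.42 to 0.08) did not pass the test (adjusted p = 0.804, limma).

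*MBNL1* had the difference closest to the threshold. It was at 117.52 and 133.26 FPKM in S34F dox+ and at 145.28 and 155.26 in WT dox+, so that the groups did not overlap. The *MBNL1* log2 fold change was -0.26 (standard error 0.11, unadjusted p = 0.05002 and adjusted p = 0.733 by limma). Without S34F dox+ replicate 2, the library with the most genes at 1 FPKM, the value was -0.35 (adjusted p = 0.525, limma), and leaving out replicate 1 of the same group gave -0.17 (adjusted p = 0.629, limma). *MBNL3* was at 21.42 and 16.89 FPKM in S34F dox+ and 23.62 and 21.44 in WT dox+, with a log2 fold change of -0.23 (95% confidence interval -0.62 to 0.16). Leaving out S34F dox+ replicate 2 brought *MBNL3* to -0.07, and leaving out replicate 1 of that group to -0.39. *MBNL2* was at 23.92 and 18.74 FPKM in S34F dox+ and 21.19 and 18.02 in WT dox+, with overlapping groups and a log2 fold change of 0.11 (-0.37 to 0.59) that fell just below 0 with TPM.

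*CELF1* was the regulator with the largest positive value. It was at 49.81 and 61.52 FPKM in S34F dox+ and at 46 and 45.24 in WT dox+, with both S34F dox+ libraries above both WT dox+ libraries. The log2 fold change was 0.27 (95% confidence interval -0.08 to 0.62, adjusted p = 0.772 by limma). Leaving out S34F dox+ replicate 2 gave 0.12, and leaving out its replicate 1 gave 0.42. *CELF1* was thus the only one of the 8 regulators with every S34F dox+ library above every WT dox+ library, against 20.5% of all genes tested, and *MBNL1*, *MBNL3* and *QKI* were the 3 with every S34F dox+ library below, against 15.3% of all genes.

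**Figure D2:**
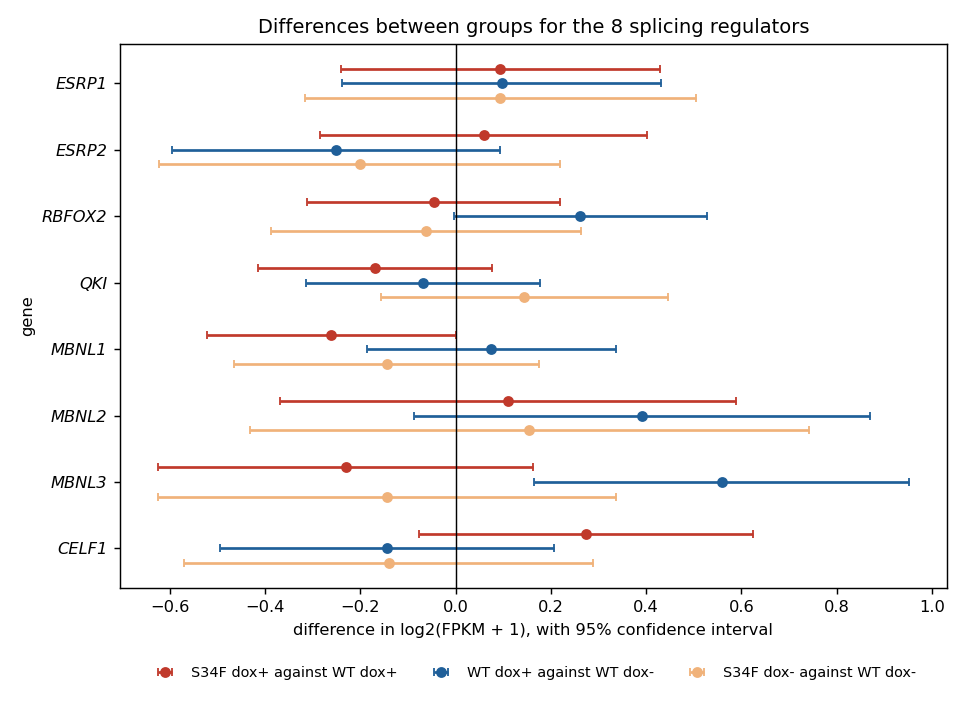
Differences in log2(FPKM + 1) for the 8 regulators in 3 comparisons (horizontal axis), with points at the estimate and bars at the 95% confidence interval from limma. Only the interval of *MBNL3* in WT dox+ against WT dox- lies wholly above 0, and that of *MBNL1* in S34F dox+ against WT dox+ ends at 0.

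The comparison of WT dox+ with WT dox- changes doxycycline and expression of the wild-type construct together, and the 2 cannot be told apart in it. At an adjusted p under 0.05 it called none of the 8 regulators, against 0.0132% of all genes. At an unadjusted p under 0.05 it called 1, against 14.4% of all genes. That regulator was *MBNL3*, the MBNL paralog on the X chromosome. It was at 23.62 and 21.44 FPKM in WT dox+ and 14.48 and 15.45 in WT dox-, with a log2 fold change of 0.56 (standard error 0.17, unadjusted p = 0.0116 and adjusted p = 0.230 by limma). *RBFOX2* was at 70.59 and 70.43 FPKM in WT dox+ and 55.2 and 62.28 in WT dox- (log2 fold change 0.26), and *MBNL2* at 21.19 and 18.02 against 12.29 and 17.47 (0.39, or 0.15 without WT dox- replicate 1 and 0.63 without WT dox- replicate 2). These 3 genes were higher in every WT dox+ library than in every WT dox- library, against 28.9% of all genes tested. *ESRP2*, at 22.46 and 25.68 FPKM in WT dox+ and 27.47 and 30.15 in WT dox-, and *QKI*, at 80.68 and 81.84 against 88.7 and 81.99, were lower in every WT dox+ library, against 20.8% of all genes.

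The S34F line without doxycycline gives the level before induction, with 1 library, whose spread the fit takes from the other groups. Against WT dox-, none of the 8 regulators was called at either threshold, where 0.0461% (adjusted) and 3.12% (unadjusted) of all genes were, and the log2 fold changes ran from -0.20 (*ESRP2*) to 0.15 (*MBNL2*). *MBNL1*, the regulator with the lowest value between the induced groups, was already at 128.79 FPKM in S34F dox-, below the 150.76 and 134.77 of WT dox-. *QKI* had its highest level of all libraries there, at 94.35 FPKM, and then 69.66 and 74.65 in S34F dox+.

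The response to doxycycline was compared between the lines with an interaction term, which rests on the single S34F dox- library. None of the 8 regulators was called at an adjusted p under 0.05 or an unadjusted p under 0.05, against 0.0264% and 3.42% of all genes. The response of *QKI* was lower in the S34F line by -0.31 on the log2 scale (95% confidence interval -0.70 to 0.07), and that of *CELF1* was higher by 0.41 (-0.14 to 0.97). The other 6 regulators had values between -0.12 (*MBNL1*) and 0.26 (*ESRP2*). All adjusted p were 1 (limma).

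The comparison of WT dox- with parental cells addresses the wild-type construct without induction, if the parental cells had no doxycycline as labelled. It called 0 regulators at an adjusted p under 0.05 and 2 at an unadjusted p under 0.05, against 0.0988% and 12.3% of all genes. *ESRP2* was at 27.47 and 30.15 FPKM in WT dox- and 21.2 and 22.03 in parental cells, a log2 fold change of 0.40 (95% confidence interval 0.05 to 0.74, adjusted p = 0.343 by limma). *MBNL2* was at 12.29 and 17.47 FPKM in WT dox- and 19.06 and 22.86 in parental cells, with -0.48 (-0.96 to -0.003, adjusted p = 0.402 by limma). Both differences were larger in size than those of the same genes between S34F dox+ and WT dox+.

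The patterns of the 8 regulators over the 9 libraries were compared with each other and with all 10003 genes at a mean of 5 FPKM or more, as a description, since all points share the same libraries and depths. Between regulators, Pearson's r of log2(FPKM + 1) ran from -0.83 for *ESRP1* with *ESRP2* to 0.79 for *ESRP1* with *MBNL2*. The mesenchymal regulators *RBFOX2* and *QKI* had r = -0.20 with each other, and *RBFOX2* had 0.64 with *MBNL3*. The gene most like *ESRP1* was *SNX4* (r = 0.96), the one most like *ESRP2* was *CDK17* (0.95), and those most like *RBFOX2* and *QKI* were RP11-347C12.1 (0.98) and *MRPS23* (0.94). For *MBNL1*, *MBNL2* and *MBNL3* these were *JADE2* (0.95), *NTN4* (0.97) and *RBM41* (0.95), and for *CELF1* it was *SIGIRR* (0.93). Second in likeness were *GMPR2* for *ESRP1*, *RTKN* for *ESRP2*, RP11-156P1.3 for *RBFOX2*, *OXNAD1* for *MBNL1*, *SYTL1* for *MBNL2*, AC084018.1 for *MBNL3*, *HMMR* for *QKI* and *KANK2* for *CELF1*, with r between 0.91 (*KANK2*) and 0.96 (RP11-156P1.3).

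Other splicing regulators linked to EMT, together with paralogs of the 8 genes, formed a list of 32, of which 25 passed the minimum of 1 FPKM. In S34F dox+ against WT dox+ none of the 25 was called at an adjusted or an unadjusted p under 0.05 (limma), against 0.0527% and 6.78% of all genes, and 4 were above and 21 below 0. The count at an unadjusted p under 0.05 was 6 with TPM and 0 to 2 with 1 library left out. Their median log2 fold change was -0.08, against 0.03 over all genes tested. The 3 largest increases were in *AKAP8* (0.25), which encodes a nuclear anchor protein, *KHDRBS3* (0.24), a STAR-family gene like *QKI*, and *PTBP2* (0.11), a paralog of the exon repressor *PTBP1*. The 3 largest decreases were in *RBFOX3* (-0.47) and *CELF2* (-0.34), paralogs of *RBFOX2* and *CELF1*, and in *RBM38* (-0.28). Without WT dox+ replicate 2 the value of *CELF2* was -0.13 and that of *RBM38* -0.019, and without WT dox+ replicate 1 they were -0.56 and -0.54. Adjusted p for these 6 genes lay between 0.769 and 0.978 by limma. *RBFOX3* was near the minimum level for testing, at 0.17 and 1.37 FPKM in S34F dox+ and 1.01 and 1.63 in WT dox+, with overlapping groups. *KHDRBS3* was also low and overlapping, at 2.88 and 1.43 FPKM in S34F dox+ and 2.05 and 1.23 in WT dox+. In WT dox+ against WT dox-, 1 of the 25 was higher and 2 were lower at an unadjusted p under 0.05, where 14.4% of all genes were called. In WT dox- against parental, 7 were higher and 1 was lower, where 12.3% of all genes were called. In neither of these comparisons was any of the 25 called at an adjusted p under 0.05.

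Splicing within the regulators was compared with PSI, percent spliced in, given as a fraction between 0 and 1. The deposited tables hold 1 PSI for S34F and 1 for wild-type per event, with the number of reads and the MISO Bayes factor for a difference, and no values per replicate, so there is no SD and no test over samples. Sides were read as S34F first from the order of names given to the tables. The thresholds for an event were a PSI difference of 0.10 or more, a Bayes factor of 5 or more and 10 or more reads over both conditions together. Of the 91 events in the 8 genes, 90 had enough reads, and 4 of these (4.44%) were past the thresholds, against 1.18% of the 87763 events of all genes with enough reads. The events of the 8 genes were also deeper. Their median reads were 1483.5 in S34F and 2242 in wild-type, against 223 and 320 over all events with enough reads. The part of read depth in the higher share was not tested. Since the reads of a gene enter several of its events, events are not independent observations. In 53 of the 90 events the difference was under 0.05, and 24 reached 0.10, most of them at a Bayes factor under the threshold. The 4 events lay in 4 different genes, 1 each in *RBFOX2*, *CELF1*, *MBNL1* and *ESRP1*. *MBNL1* had 22 events with enough reads, *CELF1* 19, *QKI* 11, *RBFOX2* 10, *MBNL2* 8, *ESRP1* and *ESRP2* 7 each, and *MBNL3* 6.

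**Figure D3:**
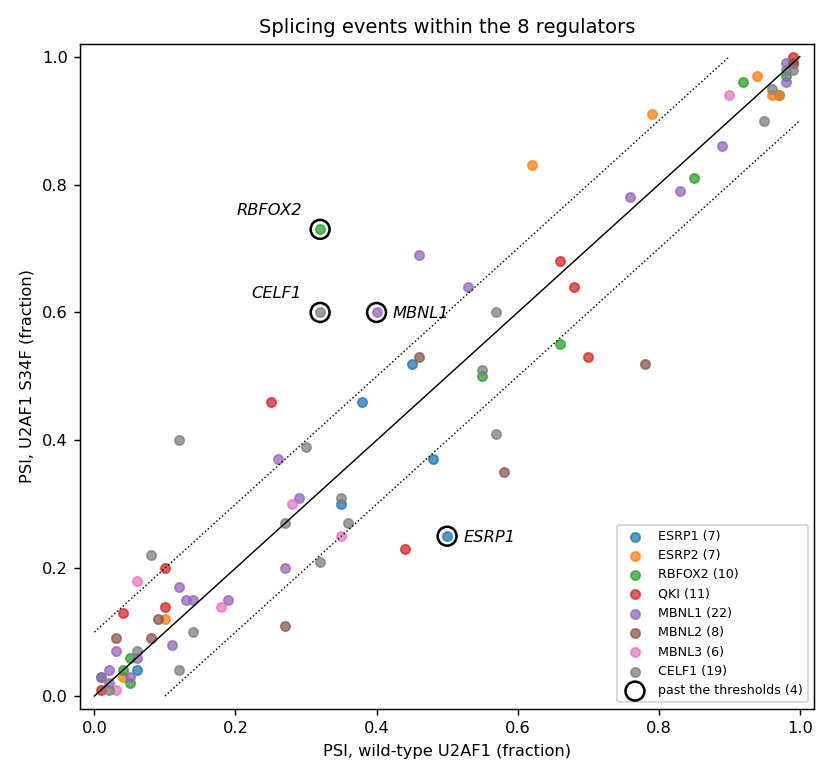
PSI in S34F (vertical axis) against PSI in wild-type (horizontal axis) for the 90 events of the 8 regulators with enough reads, 1 point per event, with the number of events per gene in the key. The solid line marks equal PSI, the dotted lines a difference of 0.10, and circles the 4 events past the thresholds, of which *RBFOX2* lies farthest from the line at 0.73 against 0.32.

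The event with the largest difference was in *RBFOX2*, at an alternative 3′ splice site on chromosome 22, minus strand. Here, 1 donor at position 36157249 is joined to an acceptor at 36156079 or to one at 36156067, which lies 12 bases farther into the exon. Coordinates are those in the splicing tables, whose build the tables do not name, and the labels' processing notes name GRCh37 (hg19). PSI was 0.73 in S34F (2867 reads) and 0.32 in wild-type (4559 reads), with a Bayes factor of 31206.38. In alternative 3′ splice site and NAGNAG events with 2 forms, the form listed first uses the acceptor nearer the donor in all cases, and PSI was taken as its share, which the tables do not state. Of the 11260 alternative 3′ splice sites of all genes with enough reads, 127 had a difference of 0.41 or more, and 40 of those were past the thresholds. *RBFOX2* RNA, by contrast, differed by -0.05 on the log2 scale between the induced groups. The other 9 *RBFOX2* events had differences between -0.11 and 0.04, with -0.11 at a NAGNAG acceptor pair at 36177793 and 36177790.

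*CELF1* had its event at a NAGNAG site, a pair of acceptors 3 bases apart, at 47498511 and 47498508 on chromosome 11, minus strand. PSI was 0.60 in S34F (1500 reads) and 0.32 in wild-type (2163 reads), with a Bayes factor of 24.29. Over all genes, 0.27% of 15950 NAGNAG events were past the thresholds, against 1.36% of 42798 skipped exons and 1.12% of alternative 3′ splice sites. A second *CELF1* event, a skipped exon starting at 47528449, had the same difference of 0.28 (0.40 against 0.12) but a Bayes factor of 1 at the 10 reads listed for S34F, which is the depth of several upstream *CELF1* events. At the other *CELF1* NAGNAG site, at 47506075 and 47506072, PSI was 0.01 and 0.02.

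In *MBNL1* the event was a skipped exon on chromosome 3, plus strand, where the donor at 152173366 is joined to an exon starting at 152174056 or past it to 152177060. By the only donor listed between those positions, 152174150, the exon is 95 bases long. Its inclusion was 0.60 in S34F (4799 reads) and 0.40 in wild-type (8692 reads), with a Bayes factor of 10.2. The same exon read from the upstream donor at 152165562 had an inclusion of 0.64 and 0.53, a difference of 0.11 in the same direction at a Bayes factor of 0.77. The exon before it, at 152173331 to 152173366, showed 0.15 and 0.14 when read against the 95-base exon. Of the 22 *MBNL1* events 16 had differences under 0.05. The largest difference listed under *MBNL1* was 0.23, in an alternative 5′ splice site at 151987217 and 151987228 with 23 reads in S34F, but this event lies on the minus strand and *MBNL1* on the plus strand, so it is not an event of *MBNL1* RNA itself. Being listed under the symbol, it stays in the counts of events given here and above.

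*ESRP1* had the only one of the 4 events with the lower PSI in S34F. This was a skipped exon on chromosome 8, plus strand, where the donor at 95705055 is joined to an exon starting at 95709080 or past it to 95718153. Inclusion was 0.25 in S34F (1275 reads) and 0.50 in wild-type (1831 reads), with a Bayes factor of 5.75, close to the threshold. The same exon read from the donor at 95690599 had an inclusion of 0.30 and 0.35, a difference of -0.05, at a Bayes factor of 0.28. The exon starting at 95704905 had 0.37 and 0.48 when read against it. In the remaining *ESRP1* events the largest difference was 0.08.

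The other 4 regulators had no event past the thresholds. The largest difference in *MBNL2* was -0.26, for a skipped exon starting at 98018713 on chromosome 13, with an inclusion of 0.52 in S34F and 0.78 in wild-type and a Bayes factor of 2.46 from 732 reads in S34F. The same exon read from the donor at 98017425 had 0.35 and 0.58, a difference of -0.23 in the same direction. In *QKI* the largest differences were 0.21 at an alternative 3′ splice site 24 bases from its partner (0.46 and 0.25, Bayes factor 0.99) and -0.21 at a NAGNAG pair (0.23 and 0.44, Bayes factor 0.93), while the retained intron after 163984751 had 0.53 and 0.70 at a Bayes factor of 1.62. *ESRP2* had its largest difference, 0.21, in a skipped exon with 46 reads in S34F and a Bayes factor of 0.81. In *MBNL3* it was 0.12 at a Bayes factor of 0.51. With a Bayes factor below the threshold a difference was not detected, but equal splicing is not shown either.

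Reads listed for the events also differed between the conditions. Over all events with enough reads, the median ratio of reads in S34F to reads in wild-type was 0.688. It was lowest among the regulators in *MBNL1* (0.553), followed by *QKI* (0.614) and *RBFOX2* (0.626), and highest in *ESRP2* (0.744). *MBNL1* also had the lowest fold of FPKM between S34F dox+ and WT dox+ (0.834) and *QKI* the next but one (0.889), but *CELF1*, with the highest fold (1.21), had a read ratio of 0.694, close to that of all events. The splicing tables compare cells overexpressing either form of U2AF1, taken here as the dox+ groups, and which libraries entered them is not given in the sources used here.

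EMT splice targets is the name used here for 25 genes known as targets of the ESRP, RBFOX, MBNL, QKI and CELF proteins. The list was written from general knowledge. These 25 genes had 290 events with enough reads, of which 7 (2.41%) were past the thresholds, in 5 genes, against 1.18% of all events. Median reads of the 290 events were 844 in S34F and 1235.5 in wild-type, against 223 and 320 over all events with enough reads. The part of read depth in this share was not tested either. Events were taken by symbol, so the 290 include some on the strand opposite to *DNM2*, *EXOC7* and *RALGPS2*. The largest difference was in *GRHL1*, a grainyhead-like transcription factor gene of epithelia. Its skipped exon starting at 10102584 on chromosome 2 was included at 0.86 in S34F (419 reads) and 0.37 in wild-type (701 reads), with a Bayes factor of 17356.77. *CD44*, a hyaluronan receptor whose variable exons are a known ESRP1 target, had 50 events with enough reads and 2 past the thresholds. Both read from the donor at 35211612 on chromosome 11, with an inclusion of 0.67 and 0.38 for the exon starting at 35227659 and of 0.16 and 0.03 for the one starting at 35218293. Other *CD44* events went the other way, and of its 18 events with a difference of at least 0.10, 11 had the lower PSI in S34F. The exon starting at 35229652, read from the same donor past to 35232793, was included at 0.05 in S34F and 0.24 in wild-type, at a Bayes factor of 4.2. From the donor at 35226187, the exon starting at 35227659 had 0.87 and 0.92. *ARHGEF11*, which encodes a guanine nucleotide exchange factor, had the lower inclusion in S34F, at 0.43 against 0.80 for the exon starting at 156941608 on chromosome 1. *OSBPL3*, a gene for an oxysterol-binding protein, had 0.74 and 0.52 for the exon starting at 24902911 on chromosome 7. The Bayes factors of these events in *ARHGEF11* and *OSBPL3* were 6.12 and 5.74, close to the threshold. *CLASP1*, which encodes a microtubule plus-end protein, had 2 linked events on chromosome 2. The exon starting at 122166623, 24 bases long by the nearest listed donor, had an inclusion of 0.58 in S34F and 0.24 in wild-type, and the NAGNAG pair that follows that donor, at 122165291 and 122165288, had 0.06 and 0.43. Read from the donors at 122165417, 122166985 and 122168442, the same pair differed by -0.11, 0.01 and -0.05, at Bayes factors of 1.25 or less. Of the 7 events 5 had the higher and 2 the lower PSI in S34F.

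**Figure D4:**
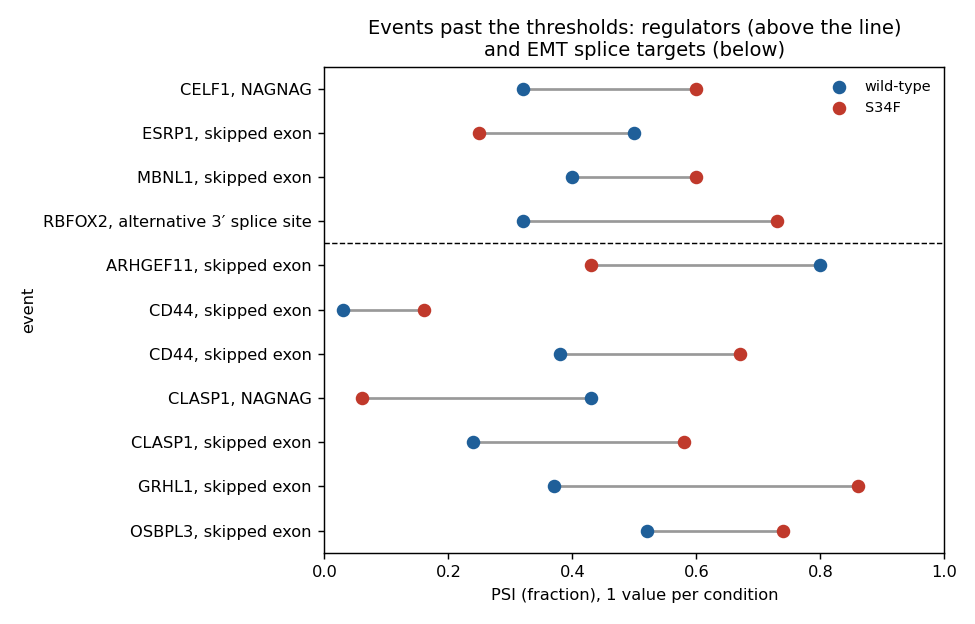
PSI (horizontal axis, a fraction) in wild-type and in S34F for the 4 events of the regulators and the 7 events of EMT splice targets past the thresholds, with 1 value per condition and no replicate error. *RBFOX2* and *GRHL1* have the widest gaps, 0.41 and 0.49, and 3 of the 11 events (*ESRP1*, *ARHGEF11* and the *CLASP1* NAGNAG) have the lower value in S34F.

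Targets with no event past the thresholds included genes with deep coverage. *CTNND1*, which encodes p120 catenin of adherens junctions, had 26 events with a median of 5146.5 reads in S34F, and *ENAH*, an actin regulator, had 8 events with a median of 1679.5. *FGFR2*, whose mutually exclusive exons are the classical ESRP target, had 13 events with a median of only 16 reads in S34F and 30 in wild-type, so that differences in it were hardly detectable at this depth.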

How the data were processed

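Total RNA was sequenced from 9 HCC78-derived libraries, and 2 iCLIP samples were not analysed here. The authors aligned trimmed reads with STAR 2.3.0 and made gene-level FPKM and TPM values with RSEM 1.2.29 (per the labels and the study's methods), which were deposited in one matrix. MISO output was deposited for 5 types of event, with PSI as a fraction, the Bayes factor as a ratio and the read count per event and condition. The Bayes factor is the authors' own comparison statistic and served only as a threshold and to describe events, and the deposited column of PSI differences was not used.

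FPKM were tested with limma 3.58.1 (R 4.3.3) in place of the count-based test the study used, as limma-trend on log2(FPKM + 1), over the 15179 genes whose mean over the libraries was 1 FPKM or more, with all 5 groups in 1 fit, two-sided, with Benjamini-Hochberg adjustment. A fold change on this scale understates that of low genes. The pipeline was tested on simulated data. Events were reduced from 109473 entries to 92662 unique ones. Where MISO gave more than 1 isoform per event, values came from the one whose Bayes factor was highest. PSI differences were S34F minus wild-type.

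Named were all 8 regulators, the 3 largest increases and 3 largest decreases among other regulators, any of these with an adjusted p under 0.05, the 2 genes most like each regulator, all events past the thresholds in regulators and EMT splice targets, and the largest difference in each regulator. Further events of the regulators and of *CD44*, and the targets with no event past the thresholds, were named after their values were seen. The members and lists were chosen with earlier results of these data known. Alternative settings changed the pseudocount, filter, scaling and unit (TPM), and added a replicate block, protein-coding genes only, the libraries in the fit, each left-out library, and the event thresholds. Reads and FPKM come with no depth per library, and intervals are from limma.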

Additional observations from a re-analysis of the deposited data

How the results depend on the processing

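None of the 8 regulators was called at an adjusted p under 0.05 in any of the 5 comparisons under any alternative run, and none of the other splicing regulators in S34F dox+ against WT dox+, for which the alternatives were run. The number of the 8 regulators at an unadjusted p under 0.05 ran from 0 to 2 in S34F dox+ against WT dox+, from 0 to 3 in WT dox+ against WT dox-, from 0 to 1 for the difference in response, was 0 throughout in S34F dox- against WT dox-, and ran from 0 to 2 in WT dox- against parental. With TPM, which moved the median of all genes in S34F dox+ against WT dox+ from 0.03 to -0.07, *MBNL1* (-0.38, adjusted p = 0.466, limma) and *QKI* (-0.29, adjusted p = 0.535, limma) were under an unadjusted p of 0.05. Values near 0 changed sign under some settings. In S34F dox+ against WT dox+, TPM gave -0.022 for *ESRP1*, -0.054 for *ESRP2* and -0.0024 for *MBNL2*, and median-ratio scaling gave -0.0064 for *ESRP2*. In WT dox+ against WT dox-, median-ratio scaling gave -0.0203 for *ESRP1* and -0.0438 for *MBNL1*. For the difference in response, *ESRP1* was -0.0001 with a pseudocount of 0.1 FPKM, -0.15 with median-ratio scaling, -0.15 with TPM and -0.062 with a replicate block, and *RBFOX2* was -0.14 with median-ratio scaling and -0.13 with TPM. The causes were not tested.

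Leaving out 1 library at a time, values that changed sign ran, in S34F dox+ against WT dox+, from -0.055 to 0.24 for *ESRP1*, -0.10 to 0.22 for *ESRP2*, -0.11 to 0.018 for *RBFOX2*, -0.058 to 0.28 for *MBNL2*, -0.10 to 0.57 for *KHDRBS3*, -0.40 to 0.61 for *PTBP2* and -0.97 to 0.044 for *RBFOX3*. In WT dox+ against WT dox- they ran from -0.026 to 0.22 for *ESRP1*, -0.0055 to 0.16 for *MBNL1* and -0.30 to 0.0102 for *CELF1*, and for the difference in response from -0.15 to 0.15 for *ESRP1*, -0.069 to 0.10 for *RBFOX2*, -0.28 to 0.19 for *MBNL2* and -0.25 to 0.076 for *MBNL3*. Values that kept their sign but moved by over 1.5 times and are not given above ran, in WT dox+ against WT dox-, from -0.34 to -0.16 for *ESRP2* and -0.13 to -0.013 for *QKI*, and for the difference in response from 0.10 to 0.42 for *ESRP2*, -0.21 to -0.03 for *MBNL1* and 0.26 to 0.57 for *CELF1*. Where a group was left with 1 library, that library was assumed to vary like the others.

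The labels give replicate numbers but no source for a pairing, and deviations of same-numbered libraries from their group means correlated at -0.08 to 0.04 over 15179 genes. A fit with a replicate block called 0 regulators at an adjusted p under 0.05 in each of the 5 comparisons. It moved the count at an unadjusted p under 0.05 to 2 in WT dox+ against WT dox- and to 1 in WT dox- against parental.

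With a Bayes factor of at least 20, 2 events of the regulators (*RBFOX2* and *CELF1*) and 3 of the EMT splice targets (*GRHL1* and both of *CD44*) were past the thresholds, in place of 4 and 7. The other 4 settings for PSI and reads left 4 events of the regulators and 6 or 7 of the targets. Depth per library is unknown for FPKM, and the splicing tables have no replicates, so the spread of PSI between cultures is not measured.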
